A study of Caenorhabditis elegans with 9 samples.

Results

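The nuclear genes of the mitochondrial respiratory chain and ATP synthase were examined in the extruded germ line of adult Caenorhabditis elegans. The set has 35 named genes, taken as the rows of the FPKM table whose WormBase gene ID carries one of the 35 symbols, out of 46245 rows in all. It comprises 8 genes of complex I, 4 of complex II, 6 of complex III, 6 of complex IV, 9 of complex V and 2 genes of cytochrome c. All 35 were found, and 34 passed the filter of a mean of at least 1 FPKM over the 9 libraries, as did 8572 genes in all. The member left out by the filter was cyc-2.2, a cytochrome c gene. FPKM counts sequenced fragments relative to transcript length and to the mapped fragments of the library, so levels of different genes are set side by side here per length.

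Wild-type worms were raised on ordinary bacteria until adulthood, then moved to RNAi bacteria and to the final temperature, and their germ lines were extruded on day 6 of adulthood by removing the head. The first group was fed bacteria with the empty RNAi vector (EV) at 20C, the second was fed iff-1 RNAi bacteria at 15C, and the third, the common control, was fed EV bacteria at 15C. Each group had 3 libraries of poly-A-selected RNA. The study asked how the germ line differs at the higher temperature and when proliferation of germ stem cells is inhibited, each against EV at 15C, so both comparisons use the same 3 EV 15C libraries. The gene iff-1 encodes one of the worm's eIF5A proteins, which help ribosomes translate. The labels do not say whether the 3 libraries of a group came from separate cultures, so the spread behind every p-value may be partly technical.

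The respiratory chain of the inner mitochondrial membrane passes electrons from NADH (complex I) and succinate (complex II) through ubiquinone to complex III, and from there by cytochrome c to complex IV, which reduces oxygen. The proton gradient built up on the way drives the ATP synthase, complex V. In C. elegans several subunits have more than 1 gene copy, with one copy on an autosome and another on the X chromosome, most of whose genes are known to be kept low in the germ line. The autosomal asb-1 is known as the germline form of ATP synthase subunit b, and the X-linked asb-2 as its somatic form.

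The RNAi target was depleted as the labels say. The iff-1 level was 104, 58.01 and 37.4 FPKM in the iff-1 RNAi 15C libraries, against 2677, 2653 and 2510.0 FPKM in the EV 15C libraries (log2 change -5.40, SE 0.29), and was 2665, 2442 and 2479 FPKM in the EV 20C libraries. All 16 germ line markers were measured, and their summed level was 5790 to 5953 FPKM in EV 20C, 5229 to 5328 FPKM in iff-1 RNAi 15C and 5392 to 5493 FPKM in EV 15C. The EV 20C sums lay above and the iff-1 RNAi 15C sums below every EV 15C sum. By the limma test described below, 7 were higher and 3 lower in EV 20C, and 2 higher and 6 lower in iff-1 RNAi 15C. Of all tested genes 19.3% were higher and 8.69% lower in EV 20C, and 16% and 15.0% in iff-1 RNAi 15C. Of 15 intestine markers 12 averaged at least 1 FPKM, with summed levels of 114 to 238 FPKM in EV 20C, 184 to 446 FPKM in iff-1 RNAi 15C and 141 to 455 FPKM in EV 15C. Of 15 muscle markers 11 did, with summed levels of 126 to 197 FPKM in EV 20C, 145 to 179 FPKM in iff-1 RNAi 15C and 193 to 231 FPKM in EV 15C. Of 12 cuticle markers 4 did, with summed levels of 5.44 to 13.5 FPKM in EV 20C, 13.8 to 28.1 FPKM in iff-1 RNAi 15C and 14.5 to 25.6 FPKM in EV 15C, so that EV 20C lay below EV 15C. Of 12 neuron markers 4 did, with summed levels of 246 to 256 FPKM in EV 20C, 221 to 229 FPKM in iff-1 RNAi 15C and 208 to 212.5 FPKM in EV 15C, so that both groups lay above EV 15C. Of 25 sperm markers 1 did and 16 were listed at 0 in all libraries, with summed levels of 1.05 to 1.44 FPKM in EV 20C, 2.67 to 3.78 FPKM in iff-1 RNAi 15C and 1.56 to 1.81 FPKM in EV 15C. No intestine or muscle marker was listed at 0 in every library, and the part of somatic RNA in the results was not tested. In RNA from whole tissue, fewer cells of a type and less RNA per cell cannot be told apart.

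The members were abundant in every library. Together they held 1.35 to 1.45% of the FPKM of a library. The most abundant members were the alpha and beta subunit genes of the catalytic head of the ATP synthase. The beta subunit gene atp-2 had 1519, 1475 and 1531 FPKM in EV 20C, 1642, 1663 and 1618 FPKM in iff-1 RNAi 15C, and 1595, 1549 and 1516 FPKM in EV 15C. The alpha subunit gene atp-1 averaged 1525 ± 1.48 FPKM in EV 20C, 1573 ± 43.8 FPKM in iff-1 RNAi 15C and 1432 ± 26.5 FPKM in EV 15C (SD, n = 3 each). These 2 genes held the first and second place in iff-1 RNAi 15C and EV 15C, while in EV 20C their means lay closer together than the spread of atp-2.

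By level per length, the median member of complex IV stood above that of complex I in each group. The median member of complex IV stood at 601 FPKM in EV 20C, 638 FPKM in iff-1 RNAi 15C and 599.9 FPKM in EV 15C. The median member of complex I stood at 210.1 FPKM in EV 20C, 195 FPKM in iff-1 RNAi 15C and 214 FPKM in EV 15C. In complex V the lowest and highest single values were 44.03 and 1663 FPKM, in asb-2 and atp-2. At the other end of the scale, ucr-2.1 and ucr-2.2, copies of a complex III core subunit, had the lowest means among the members above 0, with ucr-2.1 lowest in EV 20C and iff-1 RNAi 15C and ucr-2.2 lowest in EV 15C. Their library values overlapped within EV 20C and within EV 15C, but not within iff-1 RNAi 15C.

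**Figure D1:**
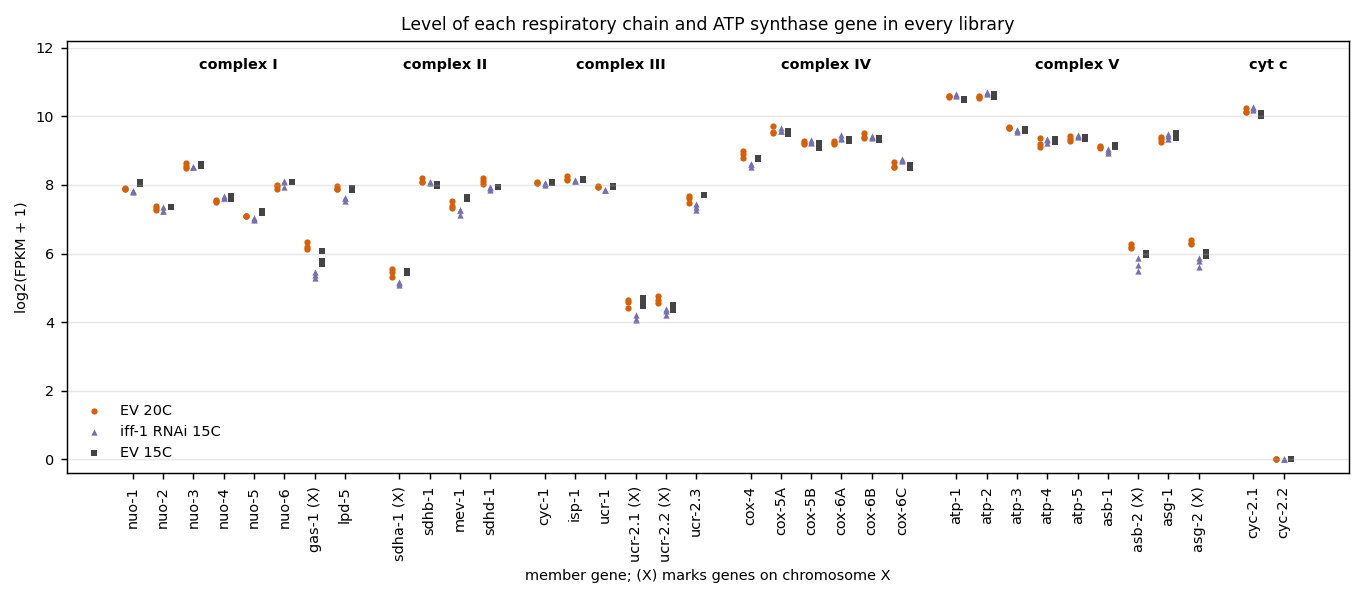
Level of each member in every library as log2(FPKM + 1), grouped by complex, with 1 point per library and the groups EV 20C, iff-1 RNAi 15C and EV 15C from left to right within each gene. The X-linked members, marked (X), lie at or below 82.4 FPKM in all 9 libraries, and every autosomal member other than cyc-2.2 lies at or above 125 FPKM.

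At 20C 26 of the 34 members did not pass the test against 15C. With limma on log2(FPKM + 1) and Benjamini-Hochberg adjustment over all 8572 tested genes, 4 members rose and 4 fell in EV 20C against EV 15C, at an adjusted p under 0.05. Over all tested genes 28.0% were called in this comparison, 19.3% higher and 8.69% lower. The median log2 change was -0.004 over the members and 0.03 over all tested genes. The 3 values of each group did not overlap for 17 of the 34 members, against 45.4% of all tested genes. The members that rose were gas-1 of complex I, sdhb-1 and sdhd-1 of complex II and asg-2 of complex V. Those that fell were nuo-1, nuo-4 and nuo-5 of complex I and mev-1 of complex II. The split depended on the scaling of the libraries, with 2 higher and 5 lower after median-ratio scaling and 8 higher and 2 lower after scaling to the sum without the 10 highest genes. The split over all tested genes, 1656 higher and 745 lower, moved too. It was 1228 and 1041, and 1807 and 512, under the same 2 scalings.

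Under iff-1 RNAi at 15C more members fell than rose. Of the 34, 13 fell and 3 rose in iff-1 RNAi 15C against EV 15C, where 31% of all tested genes were called, 15.0% lower and 16% higher. The median log2 change was -0.04 over the members and 0.015 over all tested genes. The groups did not overlap for 24 members, against 49.7% of all tested genes. The members that fell were spread over complexes I (4 of 8), II (2 of 4), III (3 of 6), IV (1 of 6) and V (3 of 9). Those that rose were cox-6C of complex IV, atp-1 of complex V and cyc-2.1, the cytochrome c gene. The changes were moderate, between -0.48 for gas-1 and 0.18 for cox-6C on the log2 scale.

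**Figure D2:**
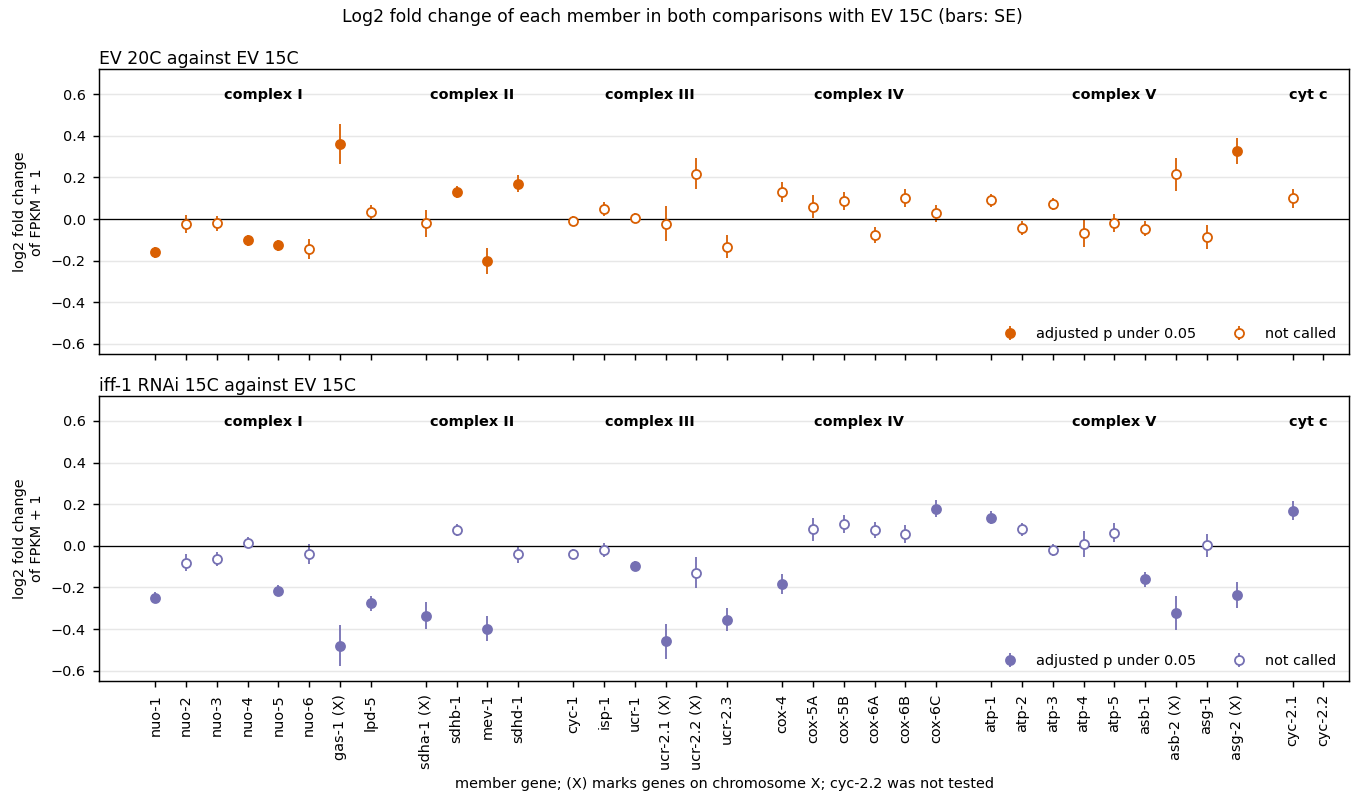
Log2 fold change of FPKM + 1 of each of the 34 tested members, grouped by complex, in EV 20C against EV 15C (upper panel) and in iff-1 RNAi 15C against EV 15C (lower panel), with bars for the SE from the limma fit and filled points where the adjusted p was under 0.05. The widest called changes are gas-1 at 0.36 and asg-2 at 0.33 in EV 20C, and gas-1 at -0.48 and ucr-2.1 at -0.46 in iff-1 RNAi 15C.

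Complex I, the NADH dehydrogenase, had 4 of its 8 members lower in iff-1 RNAi 15C and none higher. For all tested genes these shares were 15.0% and 16%. The summed level of the 8 genes was 1522 to 1595 FPKM in the iff-1 RNAi 15C libraries, against 1681 to 1750 FPKM in the EV 15C libraries, without overlap. It was 1608 to 1696 FPKM in EV 20C, which overlapped EV 15C, and there 1 member rose and 3 fell. Of all tested genes 19.3% were higher and 8.69% lower in EV 20C.

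The gene nuo-1, for the flavoprotein subunit that takes up NADH, fell in both comparisons. Its level was 241, 236 and 236 FPKM in EV 20C, 224, 219 and 226 FPKM in iff-1 RNAi 15C, and 271, 266 and 259 FPKM in EV 15C. All 6 values of EV 20C and iff-1 RNAi 15C lay below the lowest EV 15C value. The log2 change was -0.16 (SE 0.03, limma adjusted p = 0.00349) in EV 20C and -0.25 (SE 0.03, adjusted p = 0.00051) in iff-1 RNAi 15C. The gene nuo-5, for the large iron-sulfur subunit of the same electron entry arm, had 137, 135 and 136 FPKM in EV 20C, 130.4, 125 and 128 FPKM in iff-1 RNAi 15C, and 151, 150.4 and 144 FPKM in EV 15C. It too lay below every EV 15C value in both groups, with a log2 change of -0.13 (adjusted p = 0.0116) in EV 20C and -0.22 (adjusted p = 0.00108) in iff-1 RNAi 15C. After scaling to the sum without the 10 highest genes, the nuo-5 difference in EV 20C had an adjusted p of 0.0601.

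The X-linked gas-1, for a core subunit near the ubiquinone site, moved in opposite directions in the 2 comparisons. It had 79.3, 68.6 and 71.4 FPKM in EV 20C, 40.8, 37.7 and 42.7 FPKM in iff-1 RNAi 15C, and 65.8, 54.3 and 50.7 FPKM in EV 15C. All EV 20C values were the highest and all iff-1 RNAi 15C values the lowest of the 9. It rose by 28.4% in EV 20C (log2 0.36, SE 0.10, limma adjusted p = 0.0243) and fell by 29.1% in iff-1 RNAi 15C (log2 -0.48, SE 0.10, adjusted p = 0.0069). The rise at 20C was lost when replicate 1 or 3 of EV 20C (adjusted p = 0.0672 and 0.0619) or replicate 2 or 3 of EV 15C (0.0816 and 0.0727) was left out, when no filter on low genes was used (0.0594), when only the 2 groups compared were fitted (0.0568) and without the 3 libraries that stood highest of their group on intestine markers (0.114). The fall under iff-1 RNAi held under each alternative tried.

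The gene lpd-5, for an accessory subunit of the electron entry arm, fell in iff-1 RNAi 15C. It had 195, 184 and 196 FPKM in iff-1 RNAi 15C, against 238, 231 and 228 FPKM in EV 15C. No iff-1 RNAi value reached the lowest EV 15C value, and the log2 change was -0.28 (SE 0.04, limma adjusted p = 0.00109). In EV 20C it had 248, 232 and 234 FPKM, which overlapped EV 15C (log2 0.03, adjusted p = 0.509). Set directly against EV 20C, the iff-1 RNAi level was lower by 0.31 on the log2 scale (adjusted p = 0.00027).

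The accessory subunit gene nuo-4 had 180.1, 187 and 182 FPKM in EV 20C, against 202, 195 and 193 FPKM in EV 15C. The groups did not overlap, and the fall was small (log2 -0.10, SE 0.03, limma adjusted p = 0.0245). The call was lost when replicate 1 or 3 of EV 20C (adjusted p = 0.0506 and 0.0756) or replicate 1 or 2 of EV 15C (0.0843 and 0.055) was left out, and the adjusted p was 0.252 after scaling to the sum without the 10 highest genes and 0.0523 without the 3 libraries highest on intestine markers. In iff-1 RNAi 15C nuo-4 averaged 199 ± 3.598 FPKM, against 197 ± 4.59 FPKM in EV 15C (SD, n = 3 each), a difference within the spread (log2 0.02, adjusted p = 0.704). The core subunit gene nuo-2 and the accessory subunit genes nuo-3 and nuo-6 did not pass the test in either comparison, with log2 changes of -0.15 to -0.02. Exons of nuo-3 share 783 nt with the gene Y57G11C.1147 on the same strand, so its level is uncertain.

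Complex II, succinate dehydrogenase, had 2 members higher and 1 lower in EV 20C, and 2 lower in iff-1 RNAi 15C. Among all tested genes 19.3% were higher and 8.69% lower in EV 20C, and 15.0% were lower in iff-1 RNAi 15C. The summed level of the 4 members was 738 to 805 FPKM in EV 20C and 679 to 699 FPKM in iff-1 RNAi 15C, against 734 to 743 FPKM in EV 15C. In EV 20C the 2 membrane anchor genes changed in opposite directions.

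The large membrane anchor gene mev-1, whose mutation is known to make worms sensitive to oxygen, was lowest in iff-1 RNAi 15C. It had 185, 159 and 167 FPKM in EV 20C, 138, 154 and 154 FPKM in iff-1 RNAi 15C, and 200.4, 197 and 190.0 FPKM in EV 15C. Both groups lay below all EV 15C values, and the spread in EV 20C was wider than in EV 15C. It fell by 24.2% in iff-1 RNAi 15C (log2 -0.40, SE 0.06, limma adjusted p = 0.00218), a call that held under each alternative tried. The fall at 20C was -0.20 on the log2 scale (SE 0.06, adjusted p = 0.0397), and its adjusted p lay between 0.0534 and 0.117 when any one of EV 20C replicates 2 and 3, iff-1 RNAi 15C replicate 2 and the 3 EV 15C libraries was left out. It was 0.0887 with no filter on low genes, 0.05 when only the 2 groups compared were fitted and 0.079 without the 3 libraries highest on intestine markers.

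The other membrane anchor gene, sdhd-1, had 291, 259 and 276 FPKM in EV 20C, against 245, 243 and 244 FPKM in EV 15C. All EV 20C values were higher, by 12.7% on average (log2 0.17, SE 0.04, limma adjusted p = 0.0153). The call was lost narrowly without EV 15C replicate 2 (adjusted p = 0.0513), without EV 20C replicate 3 (0.0507) and after median-ratio scaling (0.0546). In iff-1 RNAi 15C sdhd-1 had 239.6, 231 and 242 FPKM, just below EV 15C, and did not pass the test (log2 -0.04, adjusted p = 0.481).

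The iron-sulfur subunit gene sdhb-1 had 291, 273 and 272 FPKM in EV 20C, against 253, 252 and 258 FPKM in EV 15C. It rose by 9.43% (log2 0.13, SE 0.03, limma adjusted p = 0.0141), with an adjusted p of 0.0519 without EV 15C replicate 2, 0.0831 after median-ratio scaling and 0.0593 without the 3 libraries highest on intestine markers. In iff-1 RNAi 15C it had 269, 267 and 268 FPKM, above all EV 15C values, with a log2 change of 0.08 that did not pass (adjusted p = 0.0844).

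The X-linked flavoprotein subunit gene sdha-1 had 38.6, 46.3 and 43.4 FPKM in EV 20C, 32.6, 34.5 and 35.1 FPKM in iff-1 RNAi 15C, and 43.9, 41.8 and 44.02 FPKM in EV 15C. The iff-1 RNAi values were the lowest 3 of the 9, and EV 20C overlapped EV 15C. It fell by 21.2% in iff-1 RNAi 15C (log2 -0.34, SE 0.06, limma adjusted p = 0.00582). Without the 3 libraries highest on intestine markers its adjusted p was 0.0587.

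Complex III, which passes electrons from ubiquinol to cytochrome c, had no called member in EV 20C and 3 of 6 members lower in iff-1 RNAi 15C. The 3 were all genes of the large core proteins that face the matrix. The share called over all tested genes was 28.0% in EV 20C, and 15.0% were lower in iff-1 RNAi 15C. The summed level of complex III was 956 to 989 FPKM in iff-1 RNAi 15C, against 1040 to 1057 FPKM in EV 15C, and was 1015 to 1069 FPKM in EV 20C. The 2 genes of the electron-carrying subunits did not pass the test in either comparison. These were cyc-1 for cytochrome c1, with means of 267, 262 and 269 FPKM in EV 20C, iff-1 RNAi 15C and EV 15C, and isp-1 for the Rieske iron-sulfur protein, with means of 291, 277 and 281 FPKM in the same groups.

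The core protein 2 has 3 gene copies, of which the autosomal ucr-2.3 was the main one. It had 202, 177 and 194 FPKM in EV 20C, 154, 163 and 173 FPKM in iff-1 RNAi 15C, and 209, 209 and 209 FPKM in EV 15C. Every EV 20C and iff-1 RNAi 15C value lay below EV 15C. It fell by 21.8% in iff-1 RNAi 15C (log2 -0.35, SE 0.05, limma adjusted p = 0.00218), and the difference in EV 20C did not pass the test (log2 -0.13, adjusted p = 0.0983).

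The X-linked ucr-2.1 had 20.5, 24.1 and 22.9 FPKM in EV 20C, 17.4, 15.7 and 15.9 FPKM in iff-1 RNAi 15C, and 22.4, 21.1 and 25.2 FPKM in EV 15C. The iff-1 RNAi values lay below all others, and EV 20C overlapped EV 15C. It fell by 28.6% in iff-1 RNAi 15C (log2 -0.46, SE 0.08, limma adjusted p = 0.00457), while in EV 20C the log2 change was -0.02 (adjusted p = 0.87). The calls of ucr-2.1 and ucr-2.3 under iff-1 RNAi held under each alternative tried.

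The other X-linked copy, ucr-2.2, had 22.4, 26.1 and 23.8 FPKM in EV 20C, 18.96, 17.5 and 19.7 FPKM in iff-1 RNAi 15C, and 20.5, 21.8 and 19.4 FPKM in EV 15C. EV 20C lay above EV 15C without overlap, and iff-1 RNAi 15C overlapped it. Neither difference passed the test, at a log2 change of 0.22 (SE 0.07, limma adjusted p = 0.0564) in EV 20C, the smallest adjusted p of complex III there, and -0.13 (adjusted p = 0.22) in iff-1 RNAi 15C. The gene of core protein 1, ucr-1, had 229.9, 229.7 and 231 FPKM in iff-1 RNAi 15C, against 249, 248 and 242 FPKM in EV 15C. It fell by 6.55% (log2 -0.10, SE 0.02, adjusted p = 0.0152), a call lost without EV 15C replicate 1 (0.0545) or replicate 2 (0.0515) and without the 3 libraries highest on intestine markers (0.0642).

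Complex IV, cytochrome c oxidase, had no called member in EV 20C and 1 higher and 1 lower of 6 in iff-1 RNAi 15C. Its members here are the nuclear subunits that surround the catalytic core, which the mitochondrial genome encodes. Levels ran from 361 to 836 FPKM over all libraries. Of all tested genes 28.0% were called in EV 20C and 31% in iff-1 RNAi 15C.

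The gene cox-4 had 510.0, 442 and 472 FPKM in EV 20C, 369, 389 and 385 FPKM in iff-1 RNAi 15C, and 428, 436 and 436 FPKM in EV 15C. The 3 groups did not overlap one another. It fell by 12.01% in iff-1 RNAi 15C (log2 -0.18, SE 0.05, limma adjusted p = 0.0203). Its adjusted p was 0.0501, 0.0625 and 0.0606 without EV 15C replicates 1, 2 and 3, and 0.0758 without iff-1 RNAi 15C replicate 1. It was 0.0811 when the 3 libraries highest on intestine markers were left out. The difference in EV 20C had the smallest adjusted p of complex IV there and did not pass the test (log2 0.13, adjusted p = 0.0766).

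The gene cox-6C had 428, 413 and 418 FPKM in iff-1 RNAi 15C, against 378, 374 and 361 FPKM in EV 15C. It rose by 13.2% (log2 0.18, SE 0.04, limma adjusted p = 0.0124), with all 3 iff-1 RNAi values above all 3 EV 15C values. In EV 20C it had 403, 365 and 366 FPKM, which overlapped EV 15C (log2 0.03, adjusted p = 0.656). The rise under iff-1 RNAi had an adjusted p of 0.125 without the 3 libraries highest on intestine markers. The other members, cox-5A, cox-5B, cox-6A and cox-6B, had log2 changes of -0.08 to 0.10 in the 2 comparisons and did not pass the test.

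Complex V, the ATP synthase, had 1 of 9 members higher in EV 20C and 1 higher and 3 lower in iff-1 RNAi 15C. The shares over all tested genes were 19.3% higher in EV 20C, and 16% higher and 15.0% lower in iff-1 RNAi 15C. In the catalytic head, atp-1 had 1526, 1523 and 1526 FPKM in EV 20C, 1531, 1619 and 1568 FPKM in iff-1 RNAi 15C, and 1461, 1409 and 1427 FPKM in EV 15C. Both groups lay above EV 15C, and the rise passed the test in iff-1 RNAi 15C (log2 0.13, SE 0.03, limma adjusted p = 0.0136) but not in EV 20C (log2 0.09, adjusted p = 0.0645). The iff-1 RNAi call was lost without EV 15C replicate 2 (0.0567), without iff-1 RNAi 15C replicate 2 (0.051), after quantile normalization (0.304), after scaling without the 10 highest genes (0.0725) and without the 3 libraries highest on intestine markers (0.0722). The beta subunit gene atp-2, shown above, did not pass in either comparison, with log2 changes of -0.04 in EV 20C and 0.08 in iff-1 RNAi 15C. The stalk genes atp-3, atp-4 and atp-5 did not pass either, with log2 changes of -0.07 to 0.07.

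Most transcript of the stalk subunit b came from the germline copy. The gene asb-1 lies on chromosome III, at 4594543 to 4595821 of the WBcel235 assembly in the Ensembl annotation, and asb-2 on X, at 4469766 to 4471476. The level of asb-1 was 559, 533 and 549.9 FPKM in EV 20C, 503, 484 and 529 FPKM in iff-1 RNAi 15C, and 574, 566 and 554 FPKM in EV 15C. The level of asb-2 was 72.3, 70.3 and 75.9 FPKM in EV 20C, 57.1, 44.03 and 49.3 FPKM in iff-1 RNAi 15C, and 62.7, 61.1 and 64.01 FPKM in EV 15C. For asb-1 the iff-1 RNAi values were the lowest and EV 20C overlapped EV 15C, while for asb-2 the 3 groups were separate, with EV 20C highest and iff-1 RNAi 15C lowest.

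Both copies fell under iff-1 RNAi. The log2 change was -0.16 for asb-1 (SE 0.04, limma adjusted p = 0.0118) and -0.32 for asb-2 (SE 0.08, adjusted p = 0.0169). For asb-2 the call was lost without EV 15C replicate 1 (0.0516) or replicate 3 (0.0558), and for asb-1 without the 3 libraries highest on intestine markers (0.0836). In EV 20C the log2 change was -0.05 for asb-1 (adjusted p = 0.377) and 0.21 for asb-2 (adjusted p = 0.0788), and neither passed. Muscle, a somatic tissue, had 3 of 11 tested markers lower and none higher in EV 20C against EV 15C (median log2 change -0.33, all 11 below 0), and their sum was 126, 197 and 149.9 FPKM in EV 20C, against 204.5, 192.5 and 231 FPKM in EV 15C, overlapping through EV 20C replicate 2. Of the 11, 2 were lower and none higher in iff-1 RNAi 15C (median -0.36), with sums of 145 to 179 FPKM that did not overlap EV 15C. Over all tested genes 8.69% were lower in EV 20C and 15.0% in iff-1 RNAi 15C. Other somatic markers did not all go with muscle. Of 4 tested neuron markers none was lower, and 1 was higher in EV 20C and 2 in iff-1 RNAi 15C. Of 12 tested intestine markers none was called, with median log2 changes of -0.61 in EV 20C and 0.24 in iff-1 RNAi 15C. The 4 tested cuticle markers had medians of -1.01 and 0.07. The part of somatic RNA in the asb-2 level was not tested.

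As a share of asb-1, asb-2 stood at 13.3 ± 0.446% in EV 20C, 9.92 ± 1.23% in iff-1 RNAi 15C and 11.1 ± 0.401% in EV 15C (SD, n = 3 each). The log2 ratio of asb-1 over asb-2 was lower by 0.26 in EV 20C than in EV 15C, with every library separate, in an exact two-sided permutation test at p = 0.1, the smallest p that 3 libraries against 3 allow. In iff-1 RNAi 15C it was higher by 0.16 than in EV 15C, and the libraries overlapped (exact permutation p = 0.3). Against EV 20C the iff-1 RNAi 15C ratio was higher by 0.42 (exact permutation p = 0.1). Adjusted over these 3 comparisons, the values were 0.15, 0.3 and 0.15, so no shift between the copies passed the test in a design of this size.

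Subunit g also has an autosomal and an X-linked gene, asg-1 and asg-2. The level of asg-1 was 676, 612 and 647 FPKM in EV 20C, 692, 646 and 717 FPKM in iff-1 RNAi 15C, and 732, 665 and 657 FPKM in EV 15C, with all 3 groups overlapping (log2 -0.09 and 0.00, limma adjusted p = 0.289 and 0.988). The level of asg-2 was 76.6, 77.6 and 82.4 FPKM in EV 20C, 48.1, 54.2 and 56.995 FPKM in iff-1 RNAi 15C, and 60.4, 65.3 and 62.2 FPKM in EV 15C. EV 20C stood above and iff-1 RNAi 15C below all EV 15C values. The gene asg-2 rose by 25.9% in EV 20C (log2 0.33, SE 0.06, adjusted p = 0.00678), a call that held under each alternative tried. It fell by 15.2% in iff-1 RNAi 15C (log2 -0.24, SE 0.06, adjusted p = 0.0211), a call lost without EV 15C replicate 2 (0.076) or replicate 3 (0.0541) and without the 3 libraries highest on intestine markers (0.126).

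**Figure D3:**
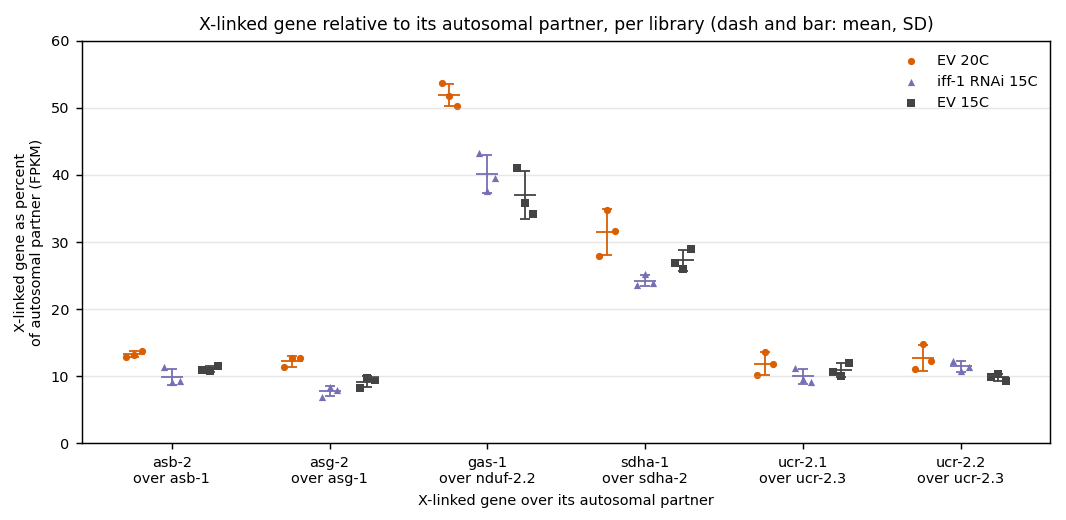
Level of each X-linked gene as a percent of its autosomal partner by FPKM in every library (points), with the group mean (dash) and SD (bar), in EV 20C, iff-1 RNAi 15C and EV 15C from left to right. The share of asb-2 averages 13.3% in EV 20C, 9.92% in iff-1 RNAi 15C and 11.1% in EV 15C, and gas-1 has the highest share of its partner, 37.01 to 51.9% by group.

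Transcript of cytochrome c, the soluble carrier between complexes III and IV, was listed for 1 of its 2 genes. The gene cyc-2.1 had 1213, 1109.8 and 1117 FPKM in EV 20C, 1234, 1208 and 1166 FPKM in iff-1 RNAi 15C, and 1089, 1094 and 1027 FPKM in EV 15C, while cyc-2.2 was listed at 0 in all 9 libraries. Both groups stood above every EV 15C value of cyc-2.1. The rise in iff-1 RNAi 15C was 12.4% (log2 0.17, SE 0.04, limma adjusted p = 0.0218), and the call was lost without EV 15C replicate 3 (0.075) or iff-1 RNAi 15C replicate 1 (0.0783) or 2 (0.065), and without the 3 libraries highest on intestine markers (0.176). In EV 20C the log2 change was 0.10 and did not pass (adjusted p = 0.13).

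The 6 members on the X chromosome, asb-2, asg-2, gas-1, sdha-1, ucr-2.1 and ucr-2.2, formed the low end of the set. They ranged from 15.7 to 82.4 FPKM over all libraries, against 125 to 1663 FPKM for the 28 autosomal members above 0. Over all tested protein-coding genes the median level was 8.37 FPKM on X and 50.6 FPKM on the autosomes. Of the 6, 2 rose and none fell in EV 20C, with a median log2 change of 0.22, and 5 fell and none rose in iff-1 RNAi 15C, with a median of -0.33. The 28 tested autosomal members had 2 higher and 4 lower in EV 20C (median -0.02), and 3 higher and 8 lower in iff-1 RNAi 15C (median -0.02).

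The X chromosome as a whole gave these shares. Of 860 tested protein-coding genes on X, 27.1% were higher and 4.65% lower in EV 20C (median log2 change 0.16), and 2.44% were higher and 23.3% lower in iff-1 RNAi 15C (median -0.16). Of 7190 on the autosomes, 19.4% were higher and 9.01% lower in EV 20C, and 18.1% were higher and 14.8% lower in iff-1 RNAi 15C, with a median of 0.03 in both. The X-linked members were not tested apart from the rest of the X chromosome.

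**Figure D4:**
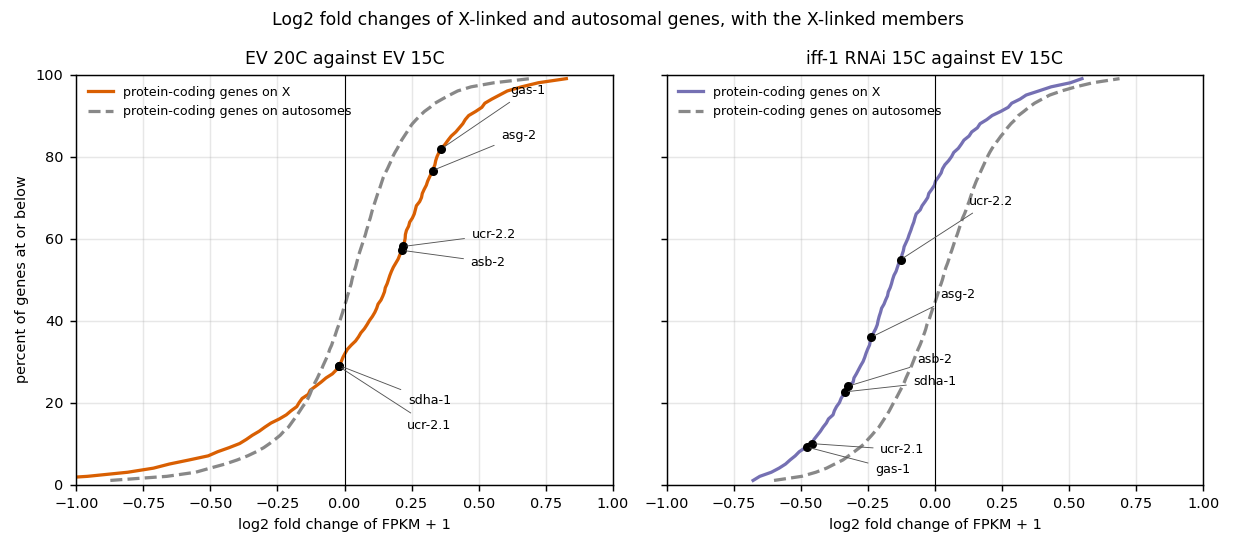
Cumulative distribution of the log2 fold change of FPKM + 1 over tested protein-coding genes on X (solid line) and on the autosomes (dashed line), in EV 20C against EV 15C (left) and in iff-1 RNAi 15C against EV 15C (right), with the 6 X-linked members as points on the X curve. The members have medians of 0.22 in EV 20C and -0.33 in iff-1 RNAi 15C, and the genes of X as a whole 0.16 and -0.16.

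Beside the X-linked copies stood autosomal partners that are not members, paired after their values had been seen. The partner of gas-1, nduf-2.2, had 148, 133 and 141.8 FPKM in EV 20C, 94.3, 100.3 and 108 FPKM in iff-1 RNAi 15C, and 160.1, 152 and 149 FPKM in EV 15C. It fell in iff-1 RNAi 15C (log2 -0.60, limma adjusted p = 0.000327), and did not pass in EV 20C (log2 -0.125, adjusted p = 0.13). The partner of sdha-1, sdha-2, had 138, 133 and 137 FPKM in EV 20C, 138, 137 and 147 FPKM in iff-1 RNAi 15C, and 163, 161 and 152 FPKM in EV 15C. It fell in both groups, by 0.22 (adjusted p = 0.00458) and 0.18 (adjusted p = 0.00942) on the log2 scale.

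The iff-1 RNAi 15C and EV 20C groups differ in RNAi and in temperature together, and were set against each other as the third pair. In iff-1 RNAi 15C 4 members were higher and 16 lower than in EV 20C, where 48.9% of all tested genes were called, 20.5% higher and 28.4% lower. The median log2 difference was -0.06 over the members and -0.02 over all tested genes. The groups did not overlap for 23 members, against 56.5% of all tested genes. All 6 X-linked members were lower, with a median of -0.49, and of the 860 tested protein-coding genes on X 6.74% were higher and 50.1% lower, against 22.2% higher and 27.4% lower on the autosomes.

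The widest differences were those of gas-1 (log2 -0.84, limma adjusted p = 0.000267), asg-2 (log2 -0.57, adjusted p = 0.00023) and asb-2 (log2 -0.54, adjusted p = 0.000899). Of the autosomal members, cox-4 (adjusted p = 0.00101) and lpd-5 (adjusted p = 0.00027) were furthest below EV 20C, both at -0.31. The members higher in iff-1 RNAi 15C were nuo-4, cox-6A, cox-6C and atp-2, by 0.12 to 0.15 on the log2 scale. Of the 20 calls 10 held under each alternative tried. Leaving out iff-1 RNAi 15C replicate 2 ended the calls of nuo-1 (adjusted p = 0.0622), nuo-5 (0.0878), atp-2 (0.0519), atp-3 (0.0982) and asb-1 (0.0969), and leaving out its replicate 1 those of mev-1 (0.09), cox-6C (0.0542) and asb-1 (0.0753). Leaving out EV 20C replicate 1 ended the calls of nuo-5 (0.0549), mev-1 (0.0714), atp-3 (0.0542) and asb-1 (0.0731), and leaving out its replicate 3 those of nuo-5 (0.0751), mev-1 (0.0551), cox-6C (0.0602), atp-3 (0.0657) and asb-1 (0.0828). The calls of nuo-4, cox-6A and atp-2 were lost after scaling without the 10 highest genes (0.221, 0.0535 and 0.131). That of sdha-1 was lost without the 3 libraries highest on intestine markers (0.0573). Leaving out those 3 also ended the calls of nuo-1 (0.0648), cox-6A (0.0957), cox-6C (0.141), atp-2 (0.0922), atp-3 (0.0742) and asb-1 (0.0938). Quantile normalization ended those of nuo-1 (0.0638), nuo-5 (0.124), mev-1 (0.0552), atp-2 (0.824), atp-3 (0.154) and asb-1 (0.266), all of which other than atp-2 were also lost after median-ratio scaling (0.0529 to 0.078). The split was 5 higher and 11 lower after median-ratio scaling, 9 and 11 after quantile normalization, and 1 and 21 after scaling without the 10 highest genes. All tested genes had 1759 higher and 2434 lower in the main fit. These scalings gave 1972 and 2216, 1956 and 2157, and 1324 and 2749 in the same order.

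Other nuclear genes of the pathway were counted in the same way. Of 70 such genes matched, 67 were tested, and they comprise further subunits, assembly factors, ubiquinone synthesis and adenine nucleotide carriers. In EV 20C 6 were higher and 8 lower (median log2 change 0.01), and in iff-1 RNAi 15C 8 were higher and 22 lower (median -0.04), beside the shares of 28.0% and 31% over all tested genes. Of 25 further complex I subunits, 3 rose and 2 fell in EV 20C, and 2 rose and 10 fell in iff-1 RNAi 15C.

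In complex I the further subunits with the smallest adjusted p under iff-1 RNAi were nduf-2.2, shown above, ndua-5 and nduf-7. The accessory subunit gene ndua-5 had 153, 156 and 169 FPKM in iff-1 RNAi 15C, against 206, 216 and 213 FPKM in EV 15C (log2 -0.41, limma adjusted p = 0.000517). The iron-sulfur core subunit gene nduf-7 had 159, 161 and 167 FPKM in iff-1 RNAi 15C, against 201, 195 and 189.7 FPKM in EV 15C (log2 -0.26, adjusted p = 0.000757). Neither gene's groups overlapped. The assembly factor gene nuaf-1 fell as well (log2 -0.36, adjusted p = 0.00852).

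**Figure D5:**
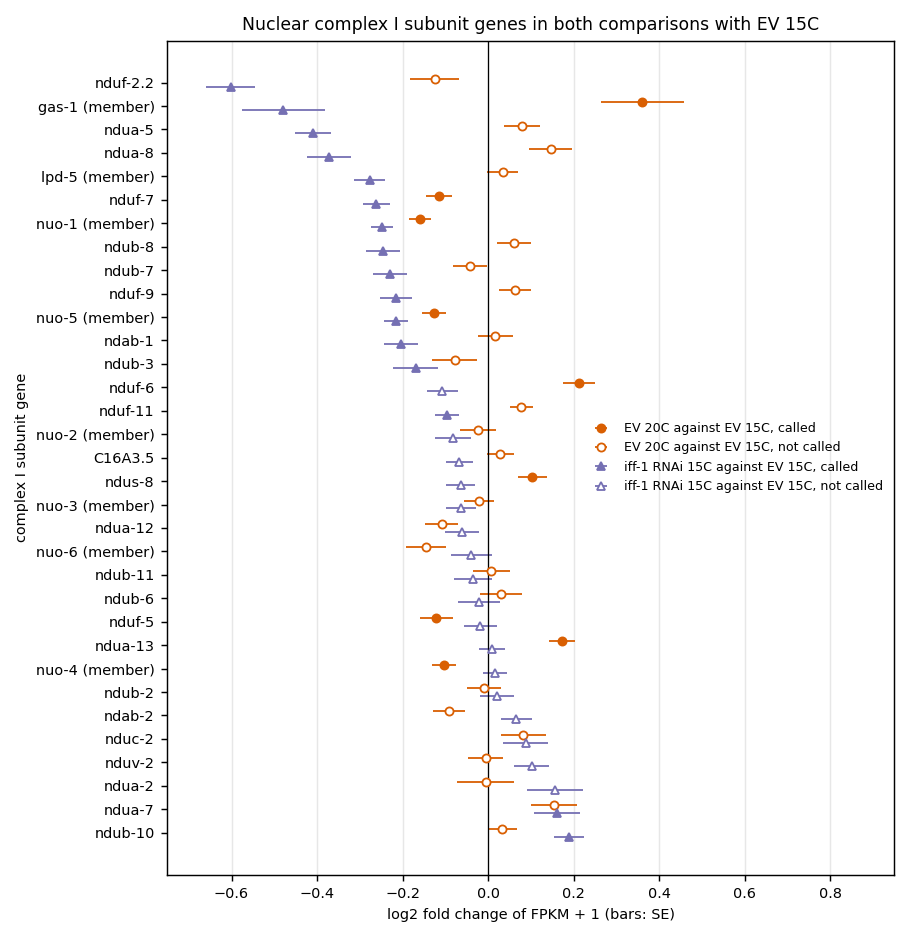
Log2 fold change of FPKM + 1 of the 8 complex I members and the 25 further subunit genes in EV 20C against EV 15C (circles) and in iff-1 RNAi 15C against EV 15C (triangles), ordered by the second, with bars for the SE and filled points where the gene was called. Under iff-1 RNAi nduf-2.2 is lowest at -0.60, followed by gas-1 at -0.48.

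In EV 20C the further complex I genes with the smallest adjusted p were nduf-6 (log2 0.21, limma adjusted p = 0.00479) and ndua-13 (log2 0.17, adjusted p = 0.00518), both higher, and nduf-7, which was lower (log2 -0.12, adjusted p = 0.0245). The call of nduf-7 was lost when replicate 2 or 3 of EV 20C (0.0663 and 0.0748) or replicate 1 or 2 of EV 15C (0.0855 and 0.0672) was left out. Of 6 further genes of complexes II and III, sdha-2 and T02H6.11 fell in both comparisons and none rose. Over all tested genes 8.69% fell in EV 20C and 15.0% in iff-1 RNAi 15C. The log2 change of T02H6.11 was -0.08 (adjusted p = 0.0386) in EV 20C and -0.25 (adjusted p = 0.000431) in iff-1 RNAi 15C. At 20C its call was lost when replicate 2 or 3 of EV 20C, any EV 15C library or iff-1 RNAi 15C replicate 2 was left out (adjusted p of 0.0542 to 0.125).

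Among the 16 further genes of complex IV, most of them assembly factors, 1 rose and 3 fell in EV 20C, and 3 rose and 4 fell in iff-1 RNAi 15C. The share called over all tested genes was 28.0% in EV 20C and 31% in iff-1 RNAi 15C. The copper chaperone gene sco-1 had 36.6, 32.1 and 34.5 FPKM in EV 20C, 21.4, 21.2 and 21.3 FPKM in iff-1 RNAi 15C, and 25.1, 27.1 and 26.5 FPKM in EV 15C. Its 3 groups were separate, with a rise in EV 20C (log2 0.38, adjusted p = 0.0023) and a fall in iff-1 RNAi 15C (log2 -0.29, limma adjusted p = 0.00536). The gene cox-18, for a factor that inserts a catalytic subunit into the membrane, had 14.7, 15.1 and 15.3 FPKM in iff-1 RNAi 15C, against 20.5, 21.8 and 21.7 FPKM in EV 15C (log2 -0.48, adjusted p = 0.00145). The assembly factor gene coa-3 also fell there (log2 -0.28, adjusted p = 0.00447). In EV 20C the assembly factor genes cox-15 (log2 -0.18, adjusted p = 0.00547) and cox-19 (log2 -0.29, adjusted p = 0.024) fell, and the call of cox-19 was lost when replicate 2 or 3 of EV 20C (0.0696 and 0.0862) or replicate 1 or 2 of EV 15C (0.0869 and 0.0839) was left out.

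Among the 7 tested further genes of complex V none was called in EV 20C, and 2 rose in iff-1 RNAi 15C. These were R53.4 (log2 0.20, limma adjusted p = 0.00339) and Y82E9BR.3 (log2 0.19, adjusted p = 0.0307). Of all tested genes 28.0% were called in EV 20C, and 16% were higher in iff-1 RNAi 15C. The call of Y82E9BR.3 was lost when any iff-1 RNAi 15C or EV 15C library or EV 20C replicate 3 was left out (adjusted p of 0.053 to 0.0882). The inhibitor of the ATP synthase was present mostly as mai-2, with 688, 583 and 607 FPKM in EV 20C, 659.5, 577 and 614 FPKM in iff-1 RNAi 15C, and 537, 554 and 540.1 FPKM in EV 15C. Both groups lay above EV 15C without overlap, and neither difference passed the test (log2 0.20 and 0.18, adjusted p = 0.0519 and 0.0683). The other inhibitor gene, mai-1, averaged 1.43 ± 0.375 FPKM in EV 20C, 3.22 ± 0.677 FPKM in iff-1 RNAi 15C and 1.96 ± 0.540 FPKM in EV 15C (SD, n = 3 each) and did not pass either.

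Within a group, many members were highest or lowest in the same library. Replicate 1 of EV 20C had the highest value of its group in 25 of the 34 members and replicate 2 the lowest in 26. Replicate 2 of iff-1 RNAi 15C was lowest in 22 members and replicate 3 highest in 17. In EV 15C replicate 1 was highest in 22 members and replicate 3 lowest in 21. The FPKM of all genes also summed unequally, to 1045474, 973003 and 995543 in replicates 1 to 3 of EV 20C. The sums were 1043373, 1038840 and 1055497 in iff-1 RNAi 15C, and 1027766, 1064980 and 1003986 in EV 15C. Members held 1.44, 1.45 and 1.45% of them in EV 20C, 1.4, 1.39 and 1.38% in iff-1 RNAi 15C, and 1.43, 1.35 and 1.4% in EV 15C. How often a library stood highest or lowest over all tested genes was not counted. The median coefficient of variation of a member was 4.37% in EV 20C, 3.08% in iff-1 RNAi 15C and 2.32% in EV 15C.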

How the data were processed

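RNA of extruded germ lines was sequenced as paired 75 nt reads from libraries of the TruSeq Stranded mRNA kit, per the labels' protocols. The authors deposited 1 table of FPKM per gene and library. The submitters' processing notes name CASAVA and Cufflinks, and the strand setting, aligner, build and annotation were not given in the sources used here, so overlapping genes are uncertain. Depth is not recorded in an FPKM table, and whole reads were sought in the steps between low values. At that depth 72.0 to 79.2% of low values lay within 0.25 of a whole number of fragments. Other depths were not tried, so whether counts can be recovered is not settled, and no count test was run.

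Genes with a mean of at least 1 FPKM over the 9 libraries (8572) were tested on log2(FPKM + 1) with limma 3.58.1 in R 4.3.3, in one fit with 3 group means, a variance trend and 6 residual degrees of freedom. Tests were two-sided with Benjamini-Hochberg adjustment over all tested genes and a threshold of 0.05. The pseudocount of 1 makes fold changes of low genes look smaller than they are. The ratio of asb-1 over asb-2 was tested by exact permutation. The fit was tested on simulated data. Members and lists were chosen with earlier results of these data known. Values per library are given for paralogues and for the called members without overlap, up to the 3 with the smallest adjusted p per complex, and of other lists the 3 called genes with the smallest adjusted p are named. Deviations from the group mean correlated at -0.19 to 0.082 between same-numbered libraries of different groups, and at -0.14 to 0.21 between different-numbered ones. This gave no sign of pairing by number and cannot exclude it. Gene names and coordinates came from the Ensembl annotation of WBcel235, which held 45990 of the 46245 IDs. Sequences were not used here. Alternatives were other pseudocounts, filters, scalings, fits and left-out libraries.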

Additional observations from a re-analysis of the deposited data

How the results depend on the processing

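No called difference of a member reversed under any of the 18 alternatives. Of 8 calls in EV 20C against EV 15C 2 held in all of them, as did 7 of 16 in iff-1 RNAi 15C against EV 15C and 10 of 20 in iff-1 RNAi 15C against EV 20C. Median-ratio scaling left 2 members higher in EV 20C, and scaling to the sum without the 10 highest genes gave 8 higher and 2 lower there. Against EV 20C, members higher in iff-1 RNAi 15C numbered 9 after quantile normalization and 1 after scaling without the 10 highest genes. The counts over all tested genes, given above, moved with the scaling as well. One alternative was chosen after seeing the data and left out the 3 libraries highest of their group on intestine markers, EV 20C replicate 2, iff-1 RNAi 15C replicate 1 and EV 15C replicate 3. With 2 libraries per group and fewer calls over all genes (1111, 927 and 2975), 2 members were higher and 2 lower in EV 20C, 0 higher and 8 lower in iff-1 RNAi 15C against EV 15C, and 1 higher and 12 lower in iff-1 RNAi 15C against EV 20C. The asb-1 over asb-2 difference was then 0.231 in iff-1 RNAi 15C against EV 15C and 0.527 against EV 20C. With 1 library left out at a time, EV 20C had 1 to 5 members higher and 2 to 5 lower, iff-1 RNAi 15C had 1 to 4 higher and 10 to 14 lower against EV 15C, and 3 to 7 higher and 12 to 16 lower against EV 20C. Calls over all genes in these fits numbered 1514 to 2518, 1798 to 3076 and 3389 to 4118, against 2401, 2659 and 4193 in the main fit. The ratio differences ranged over -0.290 to -0.234, 0.106 to 0.260 and 0.366 to 0.521 in the same order. The replicate number as a block gave 4 higher and 4 lower in EV 20C, 4 and 13 in iff-1 RNAi 15C against EV 15C, and 4 and 15 against EV 20C. It gave 2158, 2425 and 4051 calls over all genes. Under the block mev-1 was no longer called in EV 20C against EV 15C (adjusted p = 0.076) or in iff-1 RNAi 15C against EV 20C (0.0556), nuo-6 was called lower in EV 20C (0.0338) and cox-5B higher in iff-1 RNAi 15C against EV 15C (0.0408). The planned ratio of cyc-2.1 over cyc-2.2 has no value, since cyc-2.2 is listed at 0. With 3 libraries per group, the number of libraries limits the precision, and counting error is unknown without a recorded depth.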

Other observations

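Ubiquinone and the adenine nucleotide carriers serve the chain without being part of it. Of 11 tested genes, 2 rose and 1 fell in EV 20C against EV 15C, where 28.0% of all tested genes were called. In iff-1 RNAi 15C against EV 15C 1 rose and 5 fell, where 31% were called, 15.0% lower and 16% higher. Whether these 11 genes differ from all tested genes was not tested. The methyltransferase gene of ubiquinone synthesis coq-3 had 45.01, 37.5 and 41.6 FPKM in EV 20C, 24.3, 25.03 and 25.7 FPKM in iff-1 RNAi 15C, and 34.6, 35.1 and 32.6 FPKM in EV 15C. The 3 groups were separate, with a rise in EV 20C (log2 0.27, limma adjusted p = 0.0175) and a fall in iff-1 RNAi 15C (log2 -0.43, adjusted p = 0.00205). The rise was lost when replicate 3 of EV 20C or of EV 15C was left out (0.0596 and 0.0579). The monooxygenase gene coq-6 rose in EV 20C (log2 0.26, adjusted p = 0.00456), and the prenyltransferase gene coq-2 fell there (log2 -0.19, adjusted p = 0.0373), a call lost when replicate 2 or 3 of EV 20C or any EV 15C library was left out (0.0741 to 0.123). The carrier gene ucp-4 fell in iff-1 RNAi 15C (log2 -0.19, adjusted p = 0.0109). The ADP/ATP carrier of the germ line libraries was ant-1.1, with 2960.3, 2922 and 2869.7 FPKM in iff-1 RNAi 15C, against 2601, 2556 and 2561 FPKM in EV 15C (log2 0.18, adjusted p = 0.00529). It averaged 2661 ± 47.5 FPKM in EV 20C (SD, n = 3), while the related ant-1.2 stayed at or below 0.0746 FPKM in every library and ant-1.4 at or below 1.24 FPKM. The related ant-1.3 stood at 0.327% of ant-1.1 in EV 20C, 0.283% in iff-1 RNAi 15C and 0.425% in EV 15C. Its fall in iff-1 RNAi 15C against EV 15C was called. The call was lost without any iff-1 RNAi 15C library, EV 15C replicate 1 or 2, or EV 20C replicate 2 (limma adjusted p of 0.0581 to 0.145).

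The 12 genes of the mitochondrial genome code for further subunits of complexes I, III, IV and V, and poly-A selection bears on how their RNA is captured. In EV 20C against EV 15C 1 was higher and 8 lower, where 28.0% of all tested genes were called. The log2 changes ran from -1.62 to 0.32, with a median of -0.285. Of these calls, those of ND1, ND3, ND4 and ND6 were lost when single libraries were left out (limma adjusted p up to 0.144). In iff-1 RNAi 15C against EV 15C 4 were higher and 3 lower (median -0.13, range -1.42 to 0.67), where 31% were called. Against EV 20C 6 were higher and none lower (median 0.32), where 48.9% were called. The complex IV gene COX1 had 494, 499.8 and 409 FPKM in iff-1 RNAi 15C, against 341, 324 and 357 FPKM in EV 15C, without overlap (log2 0.45, limma adjusted p = 0.00363). COX3 rose as well (log2 0.30, adjusted p = 0.00699). The complex I gene ND1 had 264, 275 and 277 FPKM in iff-1 RNAi 15C, against 323, 353 and 318 FPKM in EV 15C, also without overlap (log2 -0.28, adjusted p = 0.0127), a call lost without iff-1 RNAi 15C replicate 1 (0.0513). The calls of ND2, ND4, ND4L and COX2 against EV 15C were also lost when single libraries were left out (0.0546 to 0.0955). Against EV 20C those of COX2 and ATP6 were lost in this way (0.0547 to 0.0715).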
